A study of Mus musculus with 4 samples.

Results

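The genes described here are 10 messenger RNAs that encode regulators of alternative splicing: Ptbp1, Ptbp2 and Ptbp3 of the PTB family, Mbnl1, Mbnl2 and Mbnl3 of the MBNL family, Celf1, Rbfox2, and Qk and Khdrbs1 of the STAR family. They are 10 of the 55573 genes in the deposited count table, and all 10 were among the 12401 genes with enough counts to be tested. They were chosen by family around Ptbp2, which was itself selected on its log2 fold change between the antibodies in these data. The fold changes and calls of the 10 are therefore given as a description, without p-values. The libraries come from RNA immunoprecipitation sequencing (RIP-seq), in which an antibody bound to beads pulls down RNA that is then reverse transcribed and sequenced. An antibody against Runx1, a transcription factor that the first blood stem cells need, was used for 2 libraries, and IgG, a non-specific antibody that measures the background, for the other 2. Both groups used CD31-positive cells, sorted by flow cytometry from the caudal part of wild-type C57BL/6 mouse embryos at embryonic day 10, and CD31 (Pecam1) marks endothelial and some blood cells. Whether replicates stem from different embryos, pools or sorts is not in the labels, so p-values and standard errors cover only the variation among these 4 libraries, and that variation may be technical.

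Regulators of alternative splicing bind short motifs in and around exons of the unspliced transcript and raise or lower the use of those exons. Polypyrimidine tract-binding (PTB) proteins bind pyrimidine-rich stretches and mostly repress exons. Ptbp1 is the form of most non-neural tissues, Ptbp2 is best known from developing neurons, and Ptbp3 from blood cells. MBNL proteins and Celf1 act against each other on many exons during muscle development, Rbfox2 binds UGCAUG, and Qk and Khdrbs1 carry the RNA-binding domain of the STAR family. Several of these proteins also regulate splicing of their own or each other's transcripts.

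The best-known case links the PTB genes to each other. Where Ptbp1 protein is abundant, a 34-base exon of Ptbp2 is skipped, the reading frame breaks, and the transcript is degraded by nonsense-mediated decay; Ptbp1 controls an exon of its own in the same way. The 34-base exon is shown because it is the place where Ptbp1 is known to control Ptbp2 and itself, and because it shows how far the sequences differ. For Ptbp3, the 34-base exon with the most bases identical to that of Ptbp2 was taken, and it is shown for its sequence only. The sequences are from the GENCODE M21 transcripts, 5′ to 3′ on the strand of the gene, in mm10 (GRCm38) coordinates: chr3:119724612-119724645 on the minus strand for Ptbp2, chr10:79862014-79862047 on the plus strand for Ptbp1 and chr4:59485339-59485372 on the minus strand for Ptbp3. Capitals mark, in Ptbp2, the bases that differ from Ptbp1, and in Ptbp1 and Ptbp3 those that differ from Ptbp2.
Ptbp2: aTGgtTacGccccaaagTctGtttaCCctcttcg
Ptbp1: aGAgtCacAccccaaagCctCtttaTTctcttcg
Ptbp3: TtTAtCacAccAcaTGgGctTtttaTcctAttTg
Of the 34 bases, 26 were the same in Ptbp1 as in Ptbp2, and 21 were the same in Ptbp3. In the annotation, 3 transcripts of Ptbp2 hold the exon and 3 pass over it, 2 of them classed as targets of nonsense-mediated decay. For Ptbp1, 4 transcripts hold it and 2 pass over it, both classed as such targets, while 0 annotated Ptbp3 transcripts pass over theirs. The count table gives 1 value per gene, with all isoforms together, so use of this exon was not measured.

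Over the whole coding sequence, Ptbp2 was 66.6% identical to Ptbp1 and 66.0% to Ptbp3, and Ptbp1 was 70.8% identical to Ptbp3. The longest run of identical bases in any pair of their annotated transcripts was 15 bases for Ptbp1 and Ptbp2, 20 for Ptbp1 and Ptbp3 and 21 for Ptbp2 and Ptbp3. Of other genes, only the pseudogene Gm4900 carries a near-identical stretch of Ptbp1 (at least 200 bases at 95% identity or more), and it held 1 count in all 4 libraries together. Exons of Ptbp1 also overlap 3 genes of the opposite strand, of which Plppr3 held 28 to 46 counts per library, E130317F20Rik 1 to 23 and Gm17134 0. The strand setting of the counting is not given, so reads of these genes and of Ptbp1, which held 124 to 193 counts, may not have been told apart. No copy or overlapping gene was found for Ptbp2, Celf1, Mbnl1, Mbnl3, Rbfox2 or Qk. Those of Ptbp3, Mbnl2 and Khdrbs1 (1 gene each) held 0 counts.

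Depth was lower for the Runx1 libraries, at 1675488 and 1887301 gene counts, than for the IgG libraries, at 3843318 and 2482045. The limit that a count of 0 allows, 3 counts, equals 0.781 to 1.79 CPM, where CPM is a gene's count scaled to a common library total. Levels below are CPM unless they are said to be per length. All 8 endothelial markers looked at, Pecam1, Cdh5 and Kdr among them, had counts in every library, with sums of 1281 to 1524 CPM with the Runx1 antibody and 1461 to 1570.0 with IgG. All 10 neural markers also had counts in every library, with sums of 984 to 1135 and 967 to 974 CPM. The 8 erythroid markers, mostly globin genes, summed to 866 and 869.6 CPM with the Runx1 antibody and to 459.7 and 498 with IgG; all 7 of them that were tested had a log2 fold change above 0, as did 51.5% of all genes tested. Without adjustment, 4 of these 7 were higher at a p under 0.05, against 6.88% of all genes tested. Genes in the shortest of 10 bins by transcript length had a median log2 fold change of 0.37, and these shares take no account of length. The 6 macrophage markers summed to 57.3 and 179.6 CPM with the Runx1 antibody and to 21.3 and 29.0 with IgG, and 3 of the 4 tested were above 0 (median log2 fold change 2.44; 2 higher and 0 lower without adjustment). Of these 6, Csf1r had counts in every library, at 11.9 and 144 CPM against 12.5 and 9.67, and C1qa was at 0 in both IgG libraries. Cd68 and C1qb went the other way. Cd68 stood at 0 and 0 CPM against 1.04 and 4.83, and C1qb at 2.39 and 0 against 6.76 and 5.64. The 6 blood markers (Ptprc, Kit and Itga2b among them), 4 of them with counts in every library, summed to 106 and 207 CPM against 193 and 209; all 4 tested were below 0 (median -0.51; 0 higher and 0 lower without adjustment). The 7 mesenchymal markers had counts in every library and summed to 1383 and 1416 CPM against 1275 and 1212 (median 0.50; 2 higher and 1 lower without adjustment). The 4 epithelial markers, also with counts in every library, summed to 152 and 149 CPM against 148 and 104 (median 0.10; 1 higher and 0 lower without adjustment). In edgeR 0 markers of these lists were called, and the part of these cell types in the results on splicing regulators was not tested. Fewer cells of a type and less RNA per cell cannot be told apart in such libraries. Log2 fold changes come from an edgeR quasi-likelihood fit over all 12401 genes, and a gene is called at a false discovery rate of 0.05.

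Ptbp2 was the member that differed most between the antibodies. It stood at 510.3 and 472 CPM in the Runx1 libraries and at 1169.6 and 1150.3 CPM in the IgG libraries. Both Runx1 libraries lay far below both IgG libraries, and the replicates of each antibody lay close together. The mean was 491 ± 27.4 CPM (SD, n = 2) with the Runx1 antibody and 1159.9 ± 13.6 (n = 2) with IgG, a log2 fold change of -1.27 ± 0.12 (SE), or 2.41-fold lower, which was called. The call was lost when length and GC content of the longest transcript were corrected for (-0.71). By CPM, Ptbp2 ranked 62 among the 12401 genes in the IgG libraries and 274 in the Runx1 libraries. Of the 10 neural markers, whose sums are given above, 7 had a log2 fold change above 0, as did 51.5% of all genes tested. Their median was 0.30, and 0 were called in edgeR. Without adjustment, 1 neural marker was higher and 2 were lower at a p under 0.05, against 6.88% and 7.35% of all genes tested. The higher one was Nes (0.48), and the lower ones were Elavl4 (-1.38) and Map2 (-0.96). The part of neural cells in the Ptbp2 level was not tested.

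**Figure D1:**
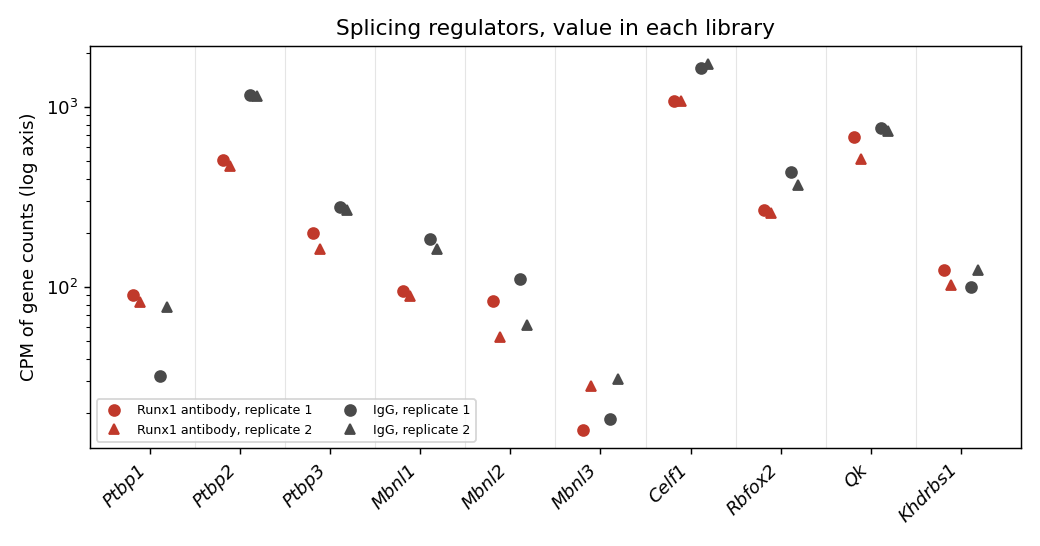
CPM of gene counts (log axis) of the 10 splicing regulators in each library, red for the Runx1 antibody and grey for IgG, circles for replicate 1 and triangles for replicate 2. Ptbp2 stands at 472 to 510.3 CPM with the Runx1 antibody and at 1150.3 to 1169.6 with IgG, while the 4 values of Mbnl2, Mbnl3 and Khdrbs1 overlap between the antibodies.

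The paralogues of Ptbp2 did not follow it to the same extent. Ptbp3 stood at 199 and 163 CPM with the Runx1 antibody and at 280.2 and 269.9 with IgG. Its libraries did not overlap either, with the Runx1 libraries lower, but the log2 fold change of -0.63 ± 0.21 was close to those of Celf1 and Rbfox2 and was not called. Ptbp1 stood at 90.1 and 83.2 CPM with the Runx1 antibody and at 32.3 and 77.8 with IgG. Both Runx1 libraries were above both IgG libraries, but the second IgG library came close to them and lay well above the first. The log2 fold change of Ptbp1, 0.63 ± 0.46, was not called. It was 0.11 without IgG replicate 1 and 1.38 without IgG replicate 2. When the libraries were scaled to spike-in RNAs it was -0.55, or 0.70 relative to the median gene, which stood at -1.25.

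A ratio of counts within a library does not depend on how libraries are scaled. The counts of Ptbp2 were 5.66 and 5.67 times those of Ptbp1 in the Runx1 libraries and 36.3 and 14.8 times in the IgG libraries. Against Ptbp3 the ratio was 2.56 and 2.89 in the Runx1 libraries, against 4.17 and 4.26 in the IgG libraries. Both ratios were lower in the Runx1 libraries with no overlap, and the ratio to Ptbp1 differed between the IgG libraries by more than a factor of 2. Ptbp2 was chosen on its fold change between these antibodies, so its lower ratios are in part given by that choice. Such ratios also keep the trends with GC content and transcript length that are given below. The share of all gene pairs without overlap was not counted. Per length of the longest transcript, Ptbp2 made up 68.7% and 70.0% of the summed PTB family level in the Runx1 libraries and 85.0% and 81.6% in the IgG libraries. Ptbp1 made up 15.5% and 15.8% against 2.99% and 7.05%, and Ptbp3 15.8% and 14.3% against 12.0% and 11.3%. Ptbp2 was thus the most abundant PTB messenger RNA in all 4 libraries, and by this length Ptbp1 was at or below Ptbp3 in 3 of them. The order of Ptbp1 and Ptbp3 depended on the length used. Ptbp1 was below Ptbp3 in all 4 libraries per length of all annotated exons (Runx1 means of 65.7 and 87.1). The same held per coding length (81.9 and 172).

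**Figure D2:**
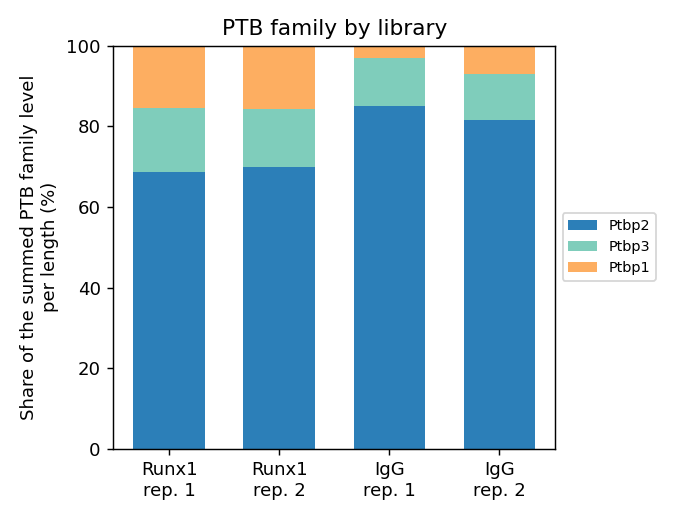
Share of Ptbp2, Ptbp3 and Ptbp1 in the summed level of the PTB family per length of the longest transcript, as a percentage, in each of the 4 libraries (bars stacked to 100%). The part of Ptbp2 is 68.7% and 70.0% in the Runx1 libraries and 85.0% and 81.6% in the IgG libraries, and that of Ptbp1 is the smallest in both IgG libraries.

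Celf1, which binds GU-rich elements and also promotes decay of messenger RNAs that carry them, was the most abundant of the 10 by CPM. It stood at 1086 and 1079 CPM with the Runx1 antibody and at 1655 and 1732 CPM with IgG. The Runx1 libraries were nearly equal and lay below both IgG libraries. Its log2 fold change was -0.67 ± 0.10, or 1.60-fold lower, and it was called lower like Ptbp2, but not after correction for transcript length and GC content.

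The MBNL genes encode zinc finger proteins that promote or repress exons by where they bind, and that are held in nuclear foci in myotonic dystrophy. Mbnl1 stood at 94.9 and 89.0 CPM with the Runx1 antibody and at 184 and 163 with IgG, with no overlap. Its log2 fold change of -0.95 ± 0.26 was the second lowest of the 10, yet it was not called, with an SE larger than that of Ptbp2 at 709 counts or fewer per library. Mbnl2 stood at 83.6 and 53.0 CPM with the Runx1 antibody and at 112 and 61.2 with IgG. Its replicates differed more than the antibodies did (-0.38 ± 0.42), and its fold change was 0.11 without IgG replicate 1. Mbnl3, the X-linked member, had 27 to 77 counts per library and stood at 16.1 and 28.1 CPM against 18.5 and 31.0. Its antibodies overlapped as well (-0.18 ± 0.64), and its direction turned in 2 of the 4 fits that each left out a library, to 0.13 without Runx1 replicate 1 and 0.22 without IgG replicate 2. Per length of the longest transcript, Mbnl1 made up 47.6% and 50.3% of the MBNL family level in the Runx1 libraries and 57.6% and 61.9% in the IgG libraries. By that length it was the most abundant of the family in all 4. Per length of all annotated exons, Mbnl1 was below Mbnl2 in Runx1 replicate 1 (18.2 against 25.0) and above it in the other libraries.

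Rbfox2, the RBFOX gene best known outside the nervous system, stood at 267 and 257 CPM with the Runx1 antibody and at 439 and 371 with IgG. The Runx1 libraries were lower with no overlap, and the log2 fold change of -0.66 ± 0.18 was not called. Qk, which encodes the Quaking proteins and is needed for embryonic blood vessels to form, stood at 683 and 516 CPM against 766 and 736. Its Runx1 libraries were lower with no overlap but differed from each other by more than the IgG libraries did. The log2 fold change of Qk was -0.36 ± 0.16 and was not called; it was -0.60 and called lower without Runx1 replicate 1, and -0.19 without Runx1 replicate 2. Khdrbs1, which encodes Sam68, a signal-regulated splicing factor, stood at 125 and 103 CPM against 99.9 and 124. Its libraries overlapped, and its log2 fold change was -0.01 ± 0.29.

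Of the 10 members, 2 were called lower with the Runx1 antibody, Ptbp2 and Celf1, 0 were called higher, and 8 were not called. Of all 12401 genes tested, 0.339% were called lower and 0.306% higher, and nothing is read from the members' count because the list grew out of this comparison. DESeq2 gave an adjusted p to 5669 genes, Mbnl3 not among them; it called 4 of the other 9 members lower, Ptbp2, Celf1, Mbnl1 and Rbfox2, and 6.07% of those genes. The test by limma-voom called Ptbp2 and Celf1 lower and 0 members higher, and of all genes tested 0.968% lower and 0.823% higher. A log2 fold change below 0 was found for 9 of the 10 and for 48.5% of the genes tested, and the members' median was -0.50 against 0.03 for all genes tested. Both Runx1 libraries lay below both IgG libraries for 6 members and above them for 1, and for 21.3% and 24.1% of the genes tested. Spike-in RNAs held 0.0356% and 0.0378% of gene counts in the Runx1 libraries and 0.0129% and 0.0175% with IgG. Scaling to them moved the median gene to -1.25, Ptbp2 to -2.55 (-1.29 relative to the median gene) and Celf1 to -1.95 (-0.69 relative to it), and 8 members were then called lower and 0 higher, against 31.6% and 0.153% of all genes tested.

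The order of the members by level was read per length: counts were divided by the length of the longest transcript and scaled to the same total in every library. In the IgG libraries Ptbp2 came first, at 910.4 and 876 per length, followed by Celf1 at 664 and 679.98. Qk (273.9 ± 12.1, SD, n = 2), Rbfox2 (183 ± 24.5) and Ptbp3 (125 ± 5.23) came next, each above the following gene with no overlap. Mbnl1 (95.7 ± 9.93) and Khdrbs1 (93.4 ± 13.0) did not differ beyond their spread, nor did Ptbp1 (53.9 ± 30.8) and Mbnl2 (48.6 ± 20.7), and Mbnl3 was last at 16.5 ± 5.69. In the Runx1 libraries Celf1 (396 ± 0.838) stood above Ptbp2 (348 ± 18.6), followed by Qk (201 ± 39.4) and Rbfox2 (109 ± 2.80). Khdrbs1, Ptbp1 and Ptbp3 followed at 87.6, 78.5 and 75.9, with overlapping libraries, ahead of Mbnl1 (46.7), Mbnl2 (35.2) and Mbnl3 (13.7). Which gene came first depended on the length used. Per coding length, Celf1 (1824) led in the IgG libraries, ahead of Qk (1216) and Ptbp2 (1204), whose libraries overlapped. Per length of all annotated exons, Celf1 (781) stood above Ptbp2 (492) in the IgG libraries.

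Transcript features varied widely among the members. They were not used directly in choosing the members. Ptbp2 was chosen on its fold change, however, which varied with GC content and transcript length across genes, as given below. The longest annotated transcript ran from 3169 bases for Ptbp1 to 8547 for Qk, and 9 of the 10 were longer than the median gene tested (3466.5 bases). The 3′ untranslated region of the longest coding transcript was 7014 bases long in Qk, 6132 in Celf1 and 1586 in Ptbp2. GC content of the longest transcript was 34.2% in Ptbp2, lower than in all but 0.347% of the genes tested, against 53.7% in Ptbp1 and a median of 48.7%. That longest Ptbp2 transcript is annotated as one that retains an intron, and the Ptbp2 transcript with the longest coding sequence has 40.6% GC. Over all genes tested, the log2 fold change rose with GC content (Spearman rho 0.24 across 12396 genes) and fell with transcript length (rho -0.26); these are values across genes of the same 4 libraries, which are not independent replicates. Genes were divided into 10 equal bins by GC content of the longest transcript. The lowest bin, which holds Ptbp2, Ptbp3, Mbnl1 and Mbnl3, had a median log2 fold change of -0.34, and the bin that holds Ptbp1 had 0.22. In the transcript with the longest coding sequence, GC content was 44.3% for Mbnl3 and 40.3% for Mbnl2. In their longest transcripts it was 39.8% and 49.3%. Of 10 bins by length, the longest, which holds Celf1 and Qk, had a median of -0.32.

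**Figure D3:**
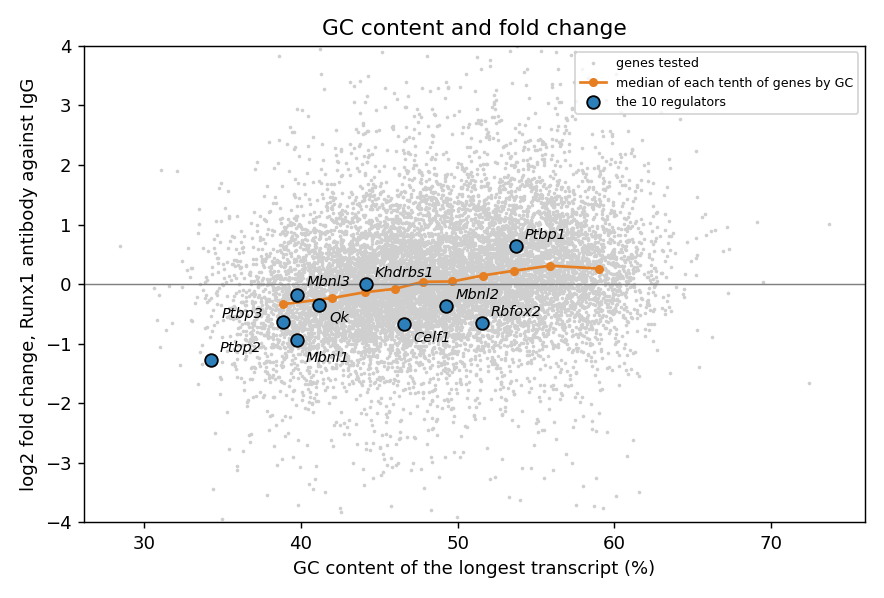
Log2 fold change of the Runx1 antibody against IgG by GC content of the longest transcript (%), with grey points for genes tested (71 lie outside the axis), the orange line for the median in each of 10 bins of genes by GC content and blue points for the 10 regulators. The medians climb from -0.34 in bin 1 to 0.31 in bin 9 and are 0.26 in bin 10, and Ptbp2, at 34.2% GC and -1.27, lies at the left edge and below the line.

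Correcting each library for length and GC content of the longest transcript brought the fold changes of 8 of the 10 members nearer to 0. When each gene was represented by its longest transcript, Ptbp2 went from -1.27 to -0.71 ± 0.14 and was no longer called, and Celf1 went from -0.67 to -0.31 ± 0.11 and was no longer called. With the transcript of the longest coding sequence, a choice made after seeing the data, Ptbp2 stood at -0.99 ± 0.13 and was called, while Celf1 stood at -0.24 ± 0.11 and was not. The values of the other members given here are those corrected with the longest transcript. Rbfox2 stood at -0.49 ± 0.18 and Mbnl1 at -0.44 ± 0.26, against -0.66 and -0.95 without correction. Ptbp3 moved to -0.03 ± 0.20, close to 0, and Qk turned to 0.22 ± 0.14. Ptbp1 stood at 0.40 ± 0.47, and Ptbp2 remained the lowest of the 10 under both corrections.

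**Figure D4:**
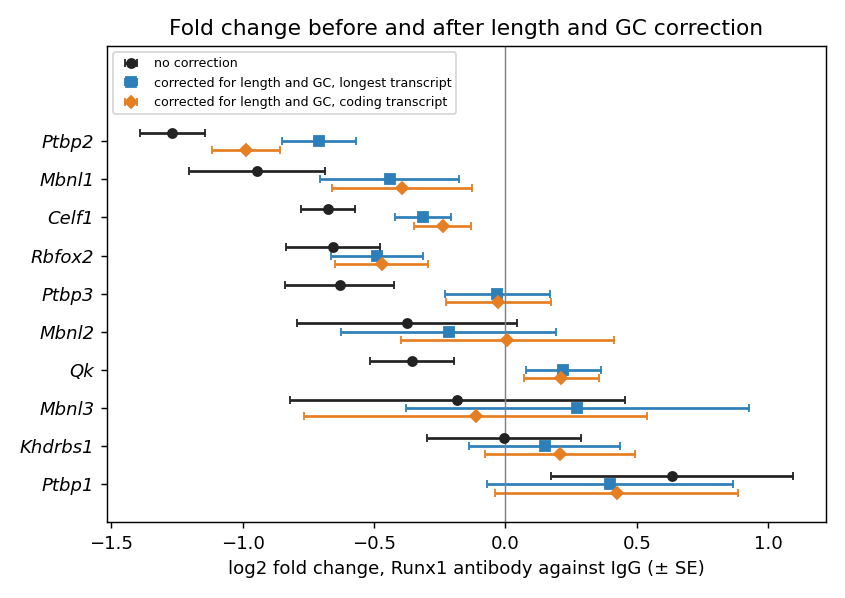
Log2 fold change (± SE) of the 10 regulators, Runx1 antibody against IgG, without correction (black circles) and corrected for length and GC content of the longest transcript (blue squares) or of the transcript with the longest coding sequence (orange diamonds). Ptbp2 moves from -1.27 to -0.71 and -0.99, and Ptbp3 from -0.63 to -0.03 under both.

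A wider list of 39 regulators of alternative splicing, drawn up with earlier results of these data known, holds further CELF, RBFOX and STAR genes, ELAVL, NOVA, ESRP, TIA, RBM, PCBP and Musashi genes, and PTB partners. Of the 39, 30 had enough counts to be tested, and in edgeR 0 were called higher and 0 lower. Without adjustment, 4 of the 30 were higher and 5 lower at a p under 0.05, against 6.88% and 7.35% of all genes tested. The test by limma-voom called 0, and DESeq2 called 1 higher, Rbm10 (DESeq2 adjusted p = 0.0483), against 4.34% of the genes to which it gave an adjusted p. The median log2 fold change over the 30 was -0.31. Rbm10, a splicing factor encoded on the X chromosome, stood at 149 and 110.2 CPM against 50.2 and 68.1 (2.15-fold higher, edgeR adjusted p = 0.201). All 4 poly(C)-binding protein genes had log2 fold changes above 0, and 0 of them were called. The values were 0.71 ± 0.22 for Pcbp1, 0.87 ± 0.32 for Pcbp2 and 0.69 ± 0.29 for Pcbp4 (edgeR adjusted p from 0.204 to 0.332), and 1.35 ± 0.85 for Pcbp3, whose libraries overlapped (edgeR adjusted p = 0.537).

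Genes of the wider list that are known from neurons lay on both sides of 0. Elavl4 stood at 18.5 and 28.1 CPM against 67.4 and 51.6 (-1.38 ± 0.48, edgeR adjusted p = 0.250), and Nova1 at 1.19 and 4.24 against 31.7 and 13.3 (-3.04 ± 0.96, edgeR adjusted p = 0.207). Nova1 held only 2 and 8 counts in the Runx1 libraries, and the first of these is under the limit of 3 counts. Elavl3, the other widely used neuronal marker of the ELAVL family, stood at 77.0 and 25.4 CPM against 31.0 and 24.6 (0.84 ± 0.59, edgeR adjusted p = 0.596), with overlap. Celf4 stood at 34.6 and 31.8 CPM against 18.7 and 20.5 (0.73 ± 0.56, edgeR adjusted p = 0.638). Elavl2 and Nova2 stood at -0.53 ± 0.44 and -1.04 ± 0.81, and Srrm4 at -0.11 ± 0.49. Khdrbs3, a paralogue of Khdrbs1, stood at -0.92 ± 0.38 and Matr3, an RNA-binding protein that works with PTB proteins, at -0.52 ± 0.22 (edgeR adjusted p = 0.320 and 0.324). Without Runx1 replicate 1, Matr3 was called lower (-0.89 ± 0.21, edgeR adjusted p = 0.0114). Celf2, the nearest relative of Celf1, stood at -0.43 ± 0.19 (edgeR adjusted p = 0.342). Raver1, a partner of PTB proteins, and Celf5 were listed at 0 in all 4 libraries.

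The genes whose pattern over the 4 libraries was most like that of Ptbp2 were sought among the 2380 other genes with a mean of at least 100 CPM, by the Euclidean distance between log2 CPM values after removing each gene's mean. The 5 nearest were Fam199x (distance 0.060), the zinc finger gene Zfp871 (0.078), Trove2, which encodes the Ro protein that binds small cytoplasmic RNAs (0.10), the aminopeptidase gene Lnpep (0.10) and the Wnt co-receptor gene Lrp6 (0.12). Lrp6, for example, stood at 456 and 419.6 CPM with the Runx1 antibody and at 983 and 929 with IgG. All 5 were called lower in the same comparison, which the 4 libraries of this measure share. Their longest transcripts ran from 8299 to 12052 bases with 37.8% to 46.0% GC, against medians of 3466.5 bases and 48.7% over the genes tested. The part of length and GC content in this likeness was not tested. Of the members, Mbnl1 was the nearest to Ptbp2, at a distance of 0.35 and rank 56, and Celf1 had rank 236, Rbfox2 276, Ptbp3 287, Qk 689 and Khdrbs1 1368.

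In mm10 (GRCm38, GENCODE M21), all 10 members are protein-coding genes. Ptbp2 lies on chromosome 3 (119718742 to 119784466, minus strand), Ptbp1 on chromosome 10 (79854427 to 79864771, plus strand) and Ptbp3 on chromosome 4 (59471868 to 59549364, minus strand). Mbnl1 lies on chromosome 3 (60472830 to 60629750), Mbnl2 on chromosome 14 (120275669 to 120431697) and Mbnl3 on chromosome X (51117269 to 51206532). Celf1 lies on chromosome 2 (90940382 to 91019497), Rbfox2 on chromosome 15 (77078990 to 77307004), Qk on chromosome 17 (10202601 to 10319854) and Khdrbs1 on chromosome 4 (129703164 to 129742303).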

How the data were processed

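RIP-seq libraries with the Runx1 antibody (2) and IgG (2) were grouped and numbered by sample title. The table that the authors deposited holds raw, unnormalized counts by Ensembl identifier in 1 column for each library, and all 4 columns were mapped by name. Tools named without role or order, per the submitters' processing notes, are STAR 2.7.3a, Trimmomatic 0.36 and Salmon 1.1.0, and the build is mm10. For the counting, annotation and strand setting were not given in the sources used. Symbols, positions and lengths came from GENCODE M21, in which 55480 of 55573 identifiers were found. The 92 ERCC spike-in rows stayed out of library sizes and tests.

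The main test was edgeR's (version 4.0.16, R 4.3.3; quasi-likelihood, TMM, filterByExpr with a minimum count of 10 and total of 15, no block, two-sided, Benjamini-Hochberg over 12401 genes). The script was tested on simulated data. The members and lists were chosen with earlier results of these data known. The rule for named genes took all members, the 8 genes of the wider list with the smallest p, and the 5 most like Ptbp2. Likeness was measured with a prior count of 2 on log2 CPM, leaving out pseudogenes and unnamed genes. Elavl2, Elavl3, Nova2, Celf2, Celf4, Srrm4, Pcbp3, Raver1, Celf5 and Gm4900 were named after their values were seen. Copies were sought with blastn 2.17.0, and coding sequences were aligned with Biopython 1.88. Alternatives were DESeq2 1.42.0 and its size factors, limma-voom 3.58.1, library totals, spike-in scaling, other filters, a replicate block, each library left out, a threshold of 0.1, and length and GC correction (a natural spline of each, 5 degrees of freedom, fitted in every library). The protocol names no molecular identifiers, so counting limits cover counting error only.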

Additional observations from a re-analysis of the deposited data

How the results depend on the processing

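With 2 libraries per antibody, 1 library can decide a call, and Mbnl3, with 27 to 77 counts per library, had the largest SE of the 10 members (0.64). The counts of genes called higher and lower (38 and 42) were 19 and 3914 with spike-in scaling, 224 and 325 with no filter on low counts, 125 and 160 with 10 counts in all libraries, 102 and 120 with limma-voom, 106 and 124 at a false discovery rate of 0.1, and 246 and 344 with DESeq2. They ran from 94 to 248 and from 80 to 352 with each library left out. With the length and GC correction 32 were higher and 4 lower, and on coding transcripts, chosen after seeing the data, 33 and 14. Members called lower (2) numbered 8 with spike-in scaling, 4 with no filter or with DESeq2, 0 with the length and GC correction, 1 on coding transcripts, and 2 to 3 with each library left out. Of the wider list, 15 were lower with spike-in scaling, 1 higher with DESeq2, and 0 to 1 lower with each library left out. Ptbp2 stood at -0.71 and was not called with the length and GC correction, and kept its direction in all 15 alternatives (-2.55 to -0.71).

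Whether the replicate numbers pair the libraries is not known: the labels do not say, and the correlation of same-numbered libraries' deviations, 0.0044, rests on 2 pairs. They were therefore not treated as paired. With a replicate block, 2 genes were higher and 0 lower, and 0 members were called. Ptbp2 stood at -1.27 and Celf1 at -0.67, nearly as without the block. With the replicate block and the length and GC correction together, 22 were higher and 2 lower, 0 members were called, and Ptbp2 stood at -0.71.

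Directions turned for members that were not called; the cause was not tested. Ptbp1 stood at -0.55 with spike-in scaling. Mbnl2 stood at 0.0071 with the correction on coding transcripts and ran from -0.76 to 0.11 with each library left out. Mbnl3 stood at 0.27 with the length and GC correction, 0.22 with the block beside it, and from -0.67 to 0.22 with each library left out (0.13 without Runx1 replicate 1). Qk stood at 0.22 with the correction, 0.22 with the block beside it and 0.21 on coding transcripts. Khdrbs1, near 0, stood at 0.024 with library totals alone, 0.025 with limma-voom, 0.15 with the correction, 0.15 with the block beside it, 0.21 on coding transcripts, and from -0.17 to 0.15 with each library left out (0.10 without Runx1 replicate 2).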
